A study of Homo sapiens with 4 samples.

Results

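The genes described here are nuclear genes whose proteins work in mitochondria: the import machinery (symbols starting with TIMM or TOMM), the mitochondrial ribosome (MRPL and MRPS), the respiratory complexes and ATP synthase (NDUF, SDH followed by A to D, UQCR, COX followed by a digit, ATP5), the inner membrane carriers (SLC25A), cytochrome c (CYCS) and the DNA packaging factor TFAM. They were chosen by current gene symbol. The array carried features for 49 such genes, and 48 of them had a value on at least 2 of the 4 arrays, out of 4454 named genes that did. TOMM40, with a value on 1 array, was left out. Of the 48 genes, 46 were measured on all 4 arrays, SLC25A40 on 3 and ATP5F1D on 2.

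Mitochondria make only a few of their own proteins, so most subunits of the respiratory chain, and every protein of the mitochondrial ribosome, are encoded in the nucleus and imported through the TOM and TIM translocases. TFAM packages and helps transcribe mitochondrial DNA, the mitochondrial ribosome translates the messages, and carriers of the SLC25 family move nucleotides and metabolites across the inner membrane. MYC is known as an activator of genes for mitochondrial biogenesis in growing cells, including B cells.

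Cells given MYC siRNA were OCI-Ly10, an established cell line from a human diffuse large B-cell lymphoma (activated B-cell-like), electroporated with a pool of siRNAs against MYC at 4 uM and harvested after 6, 8 or 24 h. The control cells were the same line, given 4 uM of a nonspecific siRNA to Renilla luciferase (8 h and 24 h) or electroporated in buffer with no siRNA (6 h and 24 h). Each of the 4 arrays set MYC siRNA RNA (Cy5) against control RNA (Cy3) of the same time, with 1 array per combination and no dye swap. All cells were of 1 line and had been electroporated, and nothing in the labels tells whether the 4 arrays came from independent cultures. The mean was tested over 4 arrays that also differ in time and kind of control, so they are not replicates of 1 condition. P-values and SDs therefore reflect how far these arrays differ from each other. Part of that may be technical, and part may come with time or control. The arrays give ratios, so marker levels of the line itself could not be checked.

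Values are log2 ratios of MYC siRNA over control as the authors deposited them. The sources used here do not state the log base or the direction. Base 2 was taken from the range of the values, and the likely direction from the dyes in the labels, with the sign of MYC already known. Between 12028 and 12784 features had a value on an array. The standard deviation over features was 0.447 on the 24 h array over no siRNA and 0.288 to 0.327 on the other 3. MYC itself was at -1.26 at 6 h, -0.94 at 8 h, -0.35 at 24 h over control siRNA and -1.03 at 24 h over no siRNA, with a mean of -0.89 ± 0.39 (SD, n = 4), and 13 of the 14 values of its 4 features lay below 0. The mean over arrays was tested against 0 with limma over 8509 rows, each a gene averaged over its features or a feature without a symbol, with Benjamini-Hochberg adjustment and a threshold of 0.05. By that test 530 rows (6.23%) were lower with MYC siRNA and 255 (3.0%) higher. Both labelling reactions started from the same mass of isolated RNA, so the ratios are relative to that mass, and fewer cells with a transcript cannot be told apart from less of it per cell.

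Of the 48 mitochondrial genes, 7 were lower with MYC siRNA, 0 were higher and 41 did not pass. That is 14.6% lower, against 6.23% of all rows tested and 6.78% of the named genes among them, and 0% higher against 3.0%. In order of mean log2 ratio the 7 were CYCS, SLC25A33, MRPL19, TFAM, MRPS27, MRPL11 and TOMM20. At an unadjusted p under 0.05 the count was 14 lower (background 16.5%) and 1 higher (background 15.2%). The median of the mean log2 ratio was -0.10 over the 48 genes and 0.01 over all rows, and 32 of the 48 means (66.7%) were below 0, against 48.5% of all rows. Values were below 0 on all 4 arrays for 18 of 46 genes (39.1%, against 23.3% of all rows measured on 4 arrays) and above 0 on all 4 for 3 (6.52%, against 19.4%). The 3 were SLC25A13, UQCRC1 and COX8A.

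**Figure D1:**
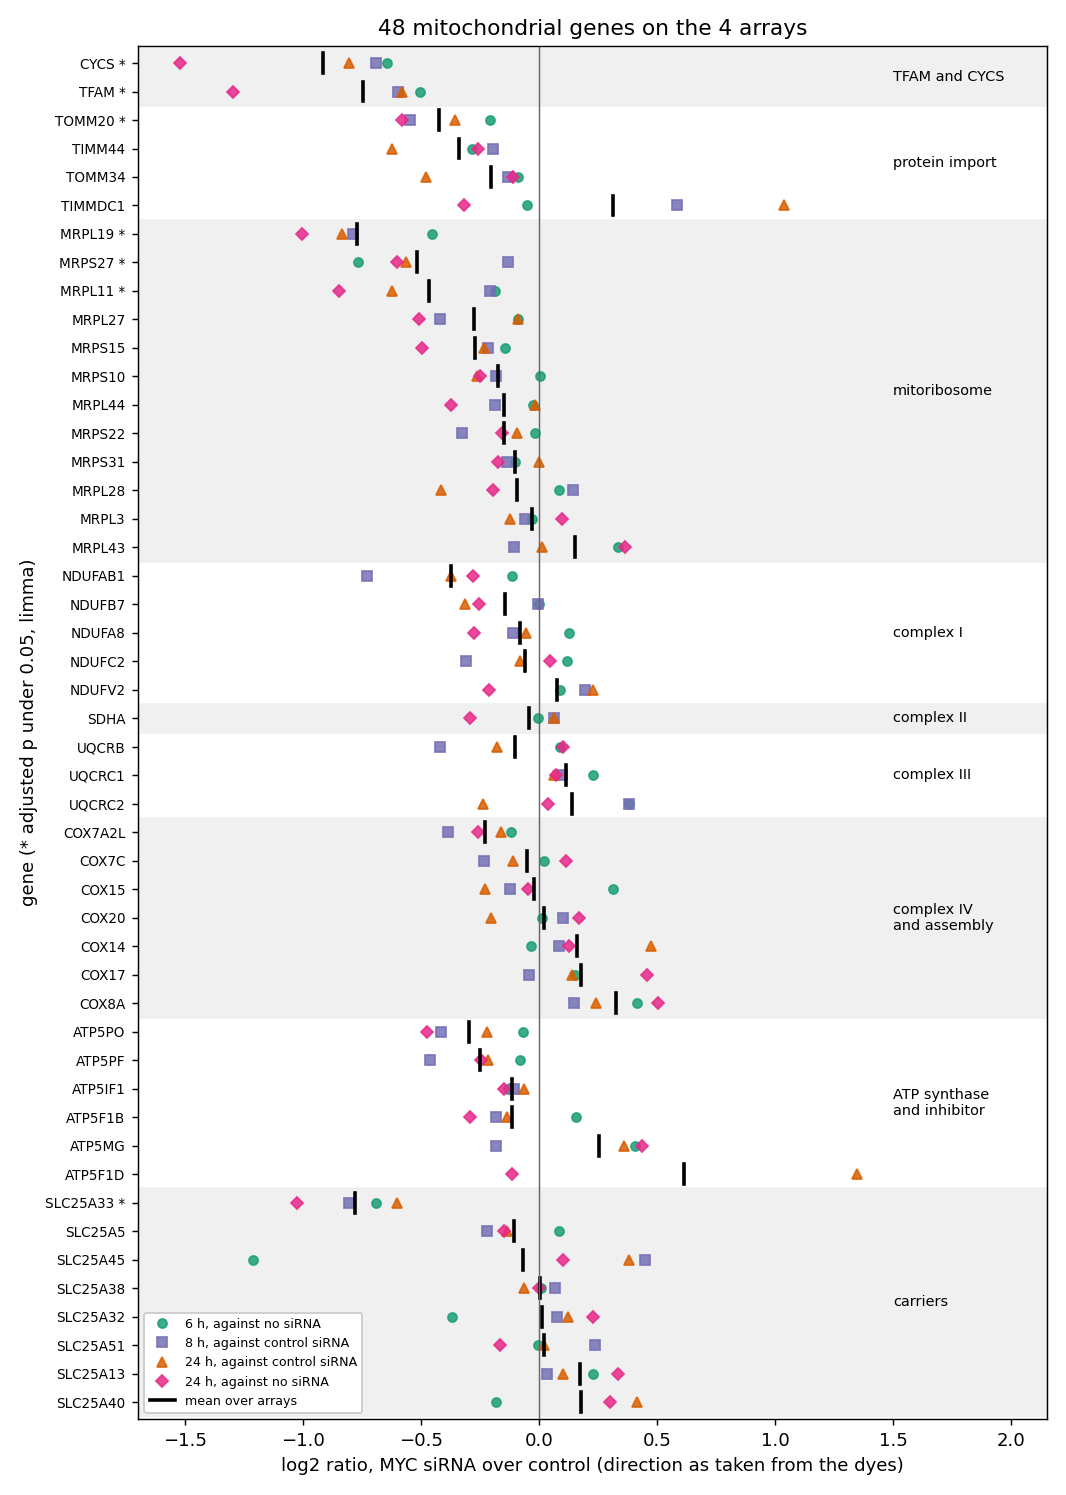
Log2 ratio of MYC siRNA over control (horizontal axis) for each of the 48 genes (vertical axis, grouped by role), with 1 symbol per array and a black bar at the mean; stars mark the 7 genes with adjusted p under 0.05 in limma. All values of the 7 starred genes lie left of 0, while most respiratory subunits and carriers lie on both sides of it.

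The promoter windows of CYCS, TFAM, SLC25A33 and TOMM20, the carrier and import genes among the 7 with cytochrome c and TFAM, are printed to show where they hold motifs of MYC and of NRF1 and GABPA, known regulators of nuclear genes for mitochondria. Each is the RefSeq window of 250 bases before and 50 after the annotated start, on the gene's strand, 5′ to 3′, in build GRCh38.p14. Capitals mark 3 motifs searched on both strands: CACGTG, the E-box bound by MYC with MAX, GCGCA and GCGC with any 1 base between them, a core of the site of NRF1, and CCGGAAGT, an ETS site of the kind bound by GABPA.
SLC25A33, chr1:9539215-9539514 (+): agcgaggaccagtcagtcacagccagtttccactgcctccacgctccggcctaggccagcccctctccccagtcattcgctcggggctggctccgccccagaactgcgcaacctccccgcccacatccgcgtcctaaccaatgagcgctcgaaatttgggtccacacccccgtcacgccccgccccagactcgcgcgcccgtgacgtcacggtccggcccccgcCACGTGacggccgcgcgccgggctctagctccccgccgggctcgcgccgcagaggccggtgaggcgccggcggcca
TOMM20, chr1:235128788-235129087 (-): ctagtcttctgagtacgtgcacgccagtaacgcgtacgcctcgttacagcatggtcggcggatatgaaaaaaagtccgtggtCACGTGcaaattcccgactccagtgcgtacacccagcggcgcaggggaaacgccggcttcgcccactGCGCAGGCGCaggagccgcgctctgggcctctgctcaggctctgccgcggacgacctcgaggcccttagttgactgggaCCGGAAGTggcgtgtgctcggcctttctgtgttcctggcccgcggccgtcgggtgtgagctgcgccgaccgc
TFAM, chr10:58385160-58385459 (+): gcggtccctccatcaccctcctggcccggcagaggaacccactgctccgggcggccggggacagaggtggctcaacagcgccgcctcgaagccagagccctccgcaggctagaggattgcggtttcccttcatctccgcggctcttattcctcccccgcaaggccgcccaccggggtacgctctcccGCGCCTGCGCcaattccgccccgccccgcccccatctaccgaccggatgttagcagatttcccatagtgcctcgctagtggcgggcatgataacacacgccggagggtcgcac
CYCS, chr7:25125211-25125510 (-): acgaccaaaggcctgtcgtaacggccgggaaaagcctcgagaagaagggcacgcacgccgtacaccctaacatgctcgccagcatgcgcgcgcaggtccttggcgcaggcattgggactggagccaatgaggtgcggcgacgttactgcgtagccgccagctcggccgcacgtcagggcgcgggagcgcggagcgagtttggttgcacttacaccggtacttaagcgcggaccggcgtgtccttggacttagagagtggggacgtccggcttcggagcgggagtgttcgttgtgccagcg

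SLC25A33 held a CACGTG that began 26 bases before the start and TOMM20 one that began 168 bases before it. TOMM20 also held an NRF1 core and an ETS site, beginning 101 and 22 bases before the start, and TFAM an NRF1 core 63 bases before it. None of the 3 motifs was found in the window of CYCS, or in those of MRPL19, MRPL11 and MRPS27, which are not printed. A window was found for 43 of the 48 genes. CACGTG was in 2 of the 7 windows of genes that were lower and in 4 of 36 of genes that did not pass. In the same order the NRF1 core was in 2 of 7 and 7 of 36, and the ETS string in 1 of 7 and 7 of 36. CACGTG was in 6 of all 43 windows (13.95%), against 7.26% of all 35116 windows and 10.7% of the windows of 3645 measured genes. The NRF1 core was in 9 of 43 (20.9%, against 10.2% of measured genes) and the ETS string in 8 of 43 (18.6%, against 6.67%). A match describes the letters of the window and is not evidence of binding.

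CYCS encodes cytochrome c, which carries electrons from complex III to complex IV and, when released to the cytosol, helps to activate caspases. Its log2 ratio was -0.64 at 6 h, -0.69 at 8 h, -0.81 at 24 h over control siRNA and -1.52 at 24 h over no siRNA. All 4 values were low, and the last stood well below the other 3. The mean was -0.92 ± 0.41 (SD, n = 4), or 52.9% of control (limma adjusted p = 0.024), which placed it 6th from the lowest of the 8509 rows. Its 2 features averaged -1.06 and -0.78, and both passed when features were tested singly.

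TFAM was at -0.50 at 6 h, -0.60 at 8 h and -0.58 at 24 h over control siRNA, and at -1.30 at 24 h over no siRNA. The first 3 values lay close together and the fourth well below them. The mean was -0.75 ± 0.37 (SD, n = 4), or 59.6% of control (limma adjusted p = 0.0281). Each of its 3 features passed singly, with means from -0.81 to -0.65, and all 12 of their values were below 0.

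SLC25A33, a carrier of pyrimidine nucleotides into mitochondria, had values of -0.69 at 6 h, -0.81 at 8 h, -0.60 at 24 h over control siRNA and -1.03 at 24 h over no siRNA. These 4 values were the closest to each other among the 4 genes of largest change. The mean was -0.78 ± 0.18 (SD, n = 4), or 58.2% of control (limma adjusted p = 0.0175), from 1 feature. The adjusted p was the smallest that any row reached.

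The import receptor TOMM20, which recognises presequences at the outer membrane, was at -0.21 at 6 h, -0.55 at 8 h, -0.36 at 24 h over control siRNA and -0.58 at 24 h over no siRNA. Its mean was -0.42 ± 0.17 (SD, n = 4), or 74.6% of control (limma adjusted p = 0.0374). Both of its features passed singly, at -0.49 and -0.36. The other 3 import genes did not pass. Over all rows 6.23% were lower, and 4 import genes are too few to set 1 call apart from that share. TIMM44, which tethers the mitochondrial Hsp70 to the inner membrane channel, averaged -0.34 ± 0.19 (SD, n = 4) with all 4 values below 0, and its adjusted p in limma was 0.0612. TIMM44 passed as lower over rows measured on all 4 arrays, with an adjusted p of 0.0445 in limma. TOMM34, a cytosolic cochaperone, averaged -0.20 ± 0.19. TIMMDC1, which carries an import symbol but serves in complex I assembly, stood apart: it was at -0.05 at 6 h and -0.32 at 24 h over no siRNA, but at 0.59 at 8 h and 1.04 at 24 h over control siRNA.

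Genes of the mitochondrial ribosome lay mostly below 0. Of 12 measured, 3 were lower, 0 higher and 9 did not pass, 11 means were below 0, and the median was -0.16. Over all rows 6.23% were lower, 3.0% higher and 48.5% had a mean below 0, with a median of 0.01. In the large subunit MRPL19 was at -0.45 at 6 h, -0.79 at 8 h, -0.84 at 24 h over control siRNA and -1.0 at 24 h over no siRNA. Its 6 h value was the smallest of the 4. The mean was -0.77 ± 0.23 (SD, n = 4), or 58.6% of control (limma adjusted p = 0.0196). MRPL11 was at -0.19 at 6 h and -0.21 at 8 h, and at -0.62 and -0.85 on the 24 h arrays against control siRNA and no siRNA. Both 24 h values lay below both early ones, and the mean was -0.47 ± 0.32 (SD, n = 4; limma adjusted p = 0.0492).

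In the small subunit MRPS27, a pentatricopeptide repeat protein, was at -0.77 at 6 h, -0.13 at 8 h, -0.56 at 24 h over control siRNA and -0.61 at 24 h over no siRNA. Its 8 h value was nearest to 0. The mean was -0.52 ± 0.27 (SD, n = 4), or 69.9% of control (limma adjusted p = 0.0347). MRPL11, MRPL19 and MRPS27 rest on 1 feature each. Among the other 9, MRPL27 averaged -0.28 and MRPS15 -0.27, each with 4 values below 0 and with adjusted p of 0.111 and 0.0914 in limma. MRPS10 (-0.17), MRPL44 (-0.15), MRPS22 (-0.15), MRPS31 (-0.10), MRPL28 (-0.10) and MRPL3 (-0.03) lay nearer to 0, and MRPL43 at 0.15 was the 1 gene of the ribosome with a mean above 0.

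Leaving out any 1 array changed these calls. Of the 7 genes, 5 passed without the 8 h array (MRPL11 and TOMM20 did not), 0 without the 24 h array over control siRNA, 0 without the 6 h array, and 2 (CYCS and SLC25A33) without the 24 h array over no siRNA. Over all rows the calls were 162, 3, 0 and 14 in the same order, against 785 with 4 arrays, so the loss ran over the whole table. At an unadjusted p under 0.05 in limma, 10 of 48, 12 of 47, 15 of 48 and 10 of 47 mitochondrial genes were lower in these fits (20.8%, 25.5%, 31.2% and 21.3%), against 15.3%, 14.7%, 15.5% and 12.8% of all rows fitted. No mean of the 7 changed sign. That of CYCS ran from -1.01 to -0.72, of TFAM from -0.83 to -0.56, of SLC25A33 from -0.84 to -0.70, of MRPL19 from -0.88 to -0.69, of MRPS27 from -0.65 to -0.43, of MRPL11 from -0.56 to -0.34 and of TOMM20 from -0.50 to -0.37.

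Subunits of the respiratory complexes and of ATP synthase did not pass as single genes in the fit over all rows. NDUFAB1, ATP5PF and ATP5PO passed as lower, and COX8A as higher, under some alternatives given below. Of 17 measured, 0 were lower and 0 higher, with a median of -0.06. Over all rows 6.23% were lower and 3.0% higher, and for 17 genes a count of 0 is near those shares. At an unadjusted p under 0.05 in limma there were 4 lower and 1 higher, where 16.5% and 15.2% of all rows were. In complex I, NDUFAB1, an acyl carrier protein that is also a subunit, was at -0.12 at 6 h, -0.73 at 8 h, -0.37 at 24 h over control siRNA and -0.28 at 24 h over no siRNA. All its values were below 0, the 8 h value by the most, and the mean of -0.38 ± 0.26 (SD, n = 4) had an adjusted p of 0.0629 in limma. NDUFAB1 passed as lower over rows measured on all 4 arrays, with an adjusted p of 0.0464 in limma. Of its 2 features, at -0.49 and -0.26, the first passed singly (limma adjusted p = 0.0359). NDUFB7 (-0.14), NDUFA8 (-0.08), NDUFC2 (-0.06) and the iron-sulfur subunit NDUFV2 (0.07) each had values of both signs.

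SDHA, the flavoprotein of succinate dehydrogenase and the 1 gene of complex II measured, averaged -0.04 ± 0.17 (SD, n = 4). Its 2 features did not match, with means of -0.33 and 0.24, and the gene value is the mean of these. In complex III the core proteins UQCRC1 and UQCRC2 averaged 0.12 and 0.14, and UQCRB averaged -0.10. None of the 3 had an unadjusted p under 0.05 in limma.

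In complex IV the small subunit gene COX8A was at 0.41 at 6 h, 0.15 at 8 h, 0.24 at 24 h over control siRNA and 0.51 at 24 h over no siRNA. All 4 values lay above 0, opposite to the 7 genes above, and the mean was 0.33 ± 0.16 (SD, n = 4) with an adjusted p of 0.0597 in limma. It passed over rows measured on all 4 arrays, with an adjusted p of 0.0432 in limma. NDUFAB1 and TIMM44 passed there as lower. COX7A2L, known for its part in respiratory supercomplexes, averaged -0.23 ± 0.12 with 4 values below 0, and COX7C averaged -0.05. Of the 4 assembly factors, the copper chaperone COX17 averaged 0.18, COX14 0.16, COX20 0.02 and COX15, of heme A synthesis, -0.02, and 0 passed. Over all rows 6.23% were lower and 3.0% higher, and 4 genes are too few to be compared with those shares.

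ATP synthase gave values on both sides of 0. ATP5PO, the stalk subunit known as OSCP, was at -0.07 at 6 h, -0.42 at 8 h, -0.22 at 24 h over control siRNA and -0.48 at 24 h over no siRNA, with a mean of -0.30 ± 0.19 (SD, n = 4; limma adjusted p = 0.0843). ATP5PF, coupling factor 6, averaged -0.25 ± 0.16 and the catalytic beta subunit ATP5F1B -0.11 ± 0.19. The features of ATP5PF averaged -0.47, -0.23 and -0.06, and the first passed singly as lower (limma adjusted p = 0.0285). Those of ATP5F1B ran from -0.26 to 0.03. ATP5MG averaged 0.25 ± 0.29, with 3 values from 0.36 to 0.43 and 1 of -0.18 at 8 h. ATP5F1D had values on the 24 h arrays alone, 1.35 against control siRNA and -0.12 against no siRNA. Its mean of 0.61 was the highest of the 48 genes and rests on 1 of these values. The inhibitor ATP5IF1 averaged -0.11 ± 0.04, but its 2 features did not match, with means of -0.29 and 0.06.

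Carriers other than SLC25A33 lay around 0. Of 8 measured, 1 was lower and 7 did not pass, and the median was 0.01. Over all rows 6.23% were lower and the median was also 0.01, and 8 genes are too few to set 1 call apart from that share. SLC25A5, the adenine nucleotide translocase ANT2, averaged -0.11 ± 0.13 over 5 features (SD, n = 4). Features of SLC25A5 may also take RNA of its close paralogs, which was not tested. SLC25A40, a glutathione carrier, averaged 0.18 over 3 arrays, SLC25A13, an aspartate and glutamate carrier, 0.17, SLC25A51, which carries NAD, 0.02, SLC25A32 0.01 and SLC25A38 0.00. SLC25A45 was at -1.21 at 6 h but at 0.45 at 8 h, 0.38 at 24 h over control siRNA and 0.10 at 24 h over no siRNA, so its mean of -0.07 hides 1 low array.

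**Figure D2:**
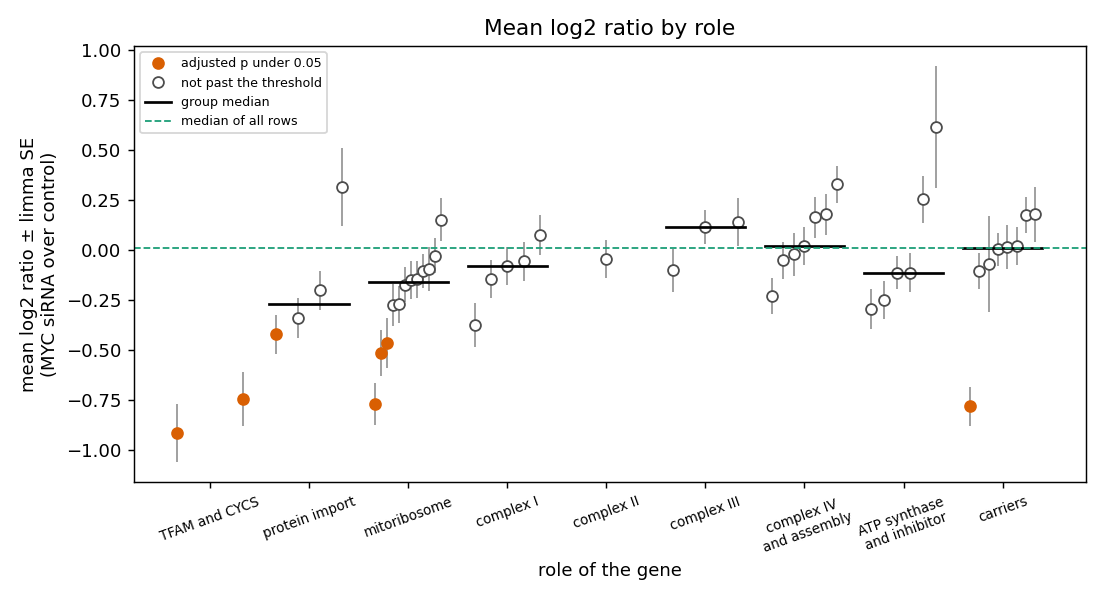
Mean log2 ratio of each gene with its limma standard error (vertical axis) by role (horizontal axis), with filled points for genes past the threshold, bars at group medians for groups of 3 or more genes, and a dashed line at the median of all rows, 0.01. The 7 filled points fall in TFAM and CYCS, import, the ribosome and the carriers, and the 17 subunits of the complexes are all open.

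Of the 48 genes, 20 were measured by several features and 28 by 1. All features of the gene had a mean of 1 sign in 13 of the 20. The range between the features of a gene had a median of 0.27, which is larger than most of the gene means reported here. The widest range, 0.76, was that of COX20, whose 3 features averaged -0.40, 0.11 and 0.36. Its first feature passed as lower (limma adjusted p = 0.0363), and none of the 20 genes had features that passed in both directions. Over 79 features tested singly, 14 were lower (background 7.13%) and 1, of COX17, was higher (background 4.16%). The features of CYCS, TFAM and TOMM20 all passed, so these 3 calls rest on several features, and the other 4 on 1 each.

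**Figure D3:**
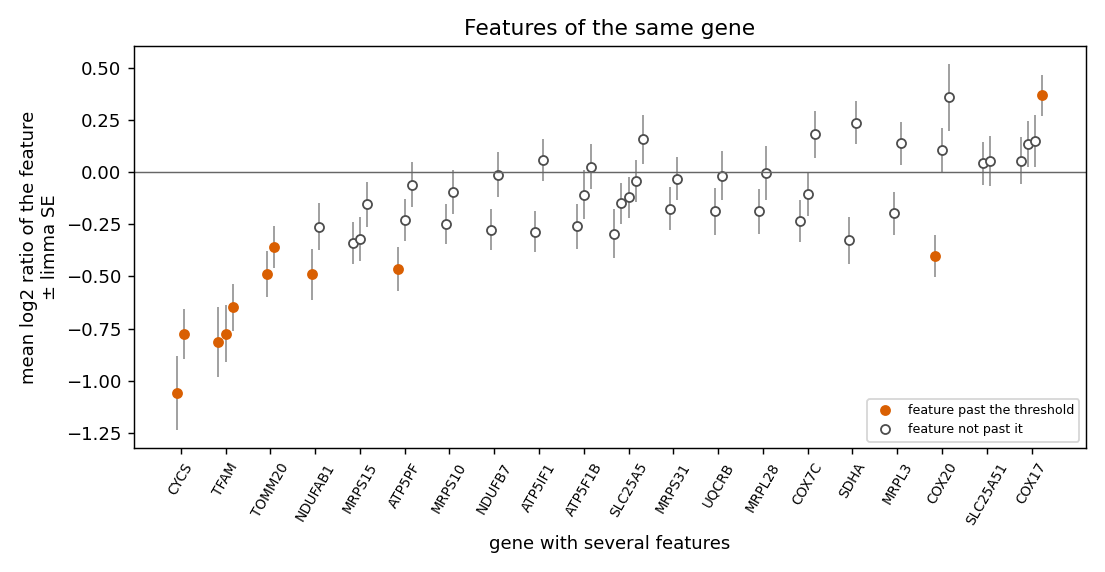
Mean log2 ratio with its limma standard error (vertical axis) of each feature of the 20 genes with several features (horizontal axis, ordered by gene mean). The features of CYCS, TFAM and TOMM20 are all filled and below 0, whereas those of SDHA, COX20 and COX7C lie on both sides of 0.

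The change with time was tested as the 24 h arrays minus the 6 h and 8 h arrays, in 1 limma model with the kind of control as the other term, over 6798 rows measured on all 4 arrays. None of 46 mitochondrial genes passed (0.118% of rows did), and the smallest adjusted p was 0.294. At an unadjusted p under 0.05 there were 5 of 46, against 10.1% of rows. MRPL11 averaged -0.74 at 24 h and -0.20 on the early arrays, a difference of -0.54 (SE 0.18). CYCS averaged -1.17 at 24 h and -0.67 early (difference -0.50, SE 0.20), and MRPL28 -0.31 and 0.11. UQCRC2 averaged -0.10 at 24 h and 0.38 early, and SLC25A45 0.24 and -0.38. The 24 h values of CYCS were -0.81 over control siRNA and -1.52 on the array over no siRNA, which had the widest spread over all rows. With arrays centred and scaled, CYCS and SLC25A45 no longer had an unadjusted p under 0.05, and MRPL11, MRPL28 and UQCRC2 still did. These differences were not past the adjusted threshold, and with 1 residual degree of freedom the errors come mostly from the spread pooled over rows.

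Array by array, the median over the mitochondrial genes was -0.03 at 6 h, -0.14 at 8 h, -0.12 at 24 h over control siRNA and -0.17 at 24 h over no siRNA. Over all rows it was -0.01, 0.01, 0.02 and -0.03. At 6 h 27 of 47 values were below 0, and on each of the other 3 arrays 32 were. For the ribosome alone the medians were -0.06, -0.18, -0.18 and -0.31, and for the 17 subunits of the complexes 0.09, -0.18, -0.11 and -0.22. The 6 h array thus gave the smallest medians of both groups or, for the complexes, the opposite sign.

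**Figure D4:**
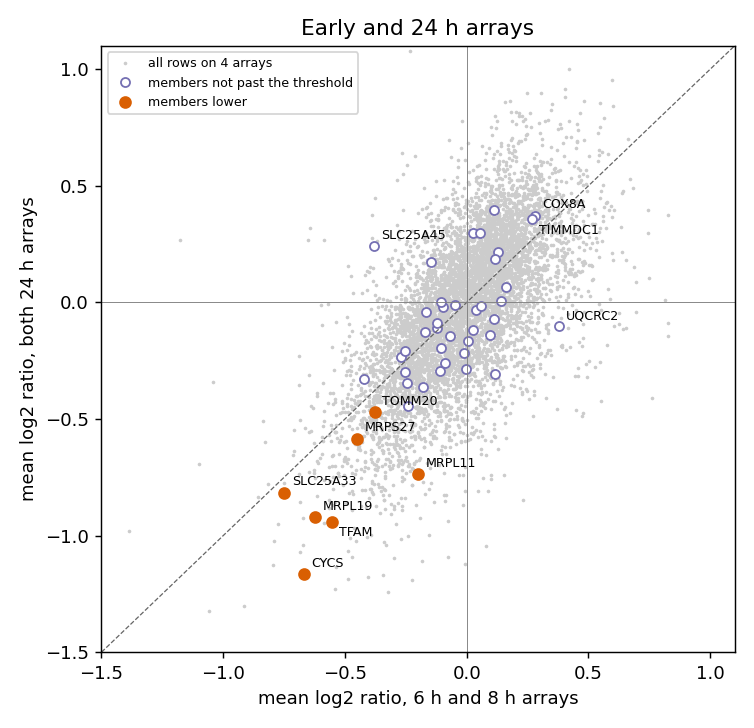
Mean log2 ratio over both 24 h arrays (vertical axis) against that over the 6 h and 8 h arrays (horizontal axis) for rows measured on all 4 arrays, with 4 rows outside the axes, and a dashed line of equal values. The 7 filled points lie below 0 on both axes and below the dashed line, with CYCS at -1.17 and -0.67, and the open points scatter around 0.

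By kind of control, as the arrays against no siRNA minus those against control siRNA, 0 of 46 genes passed (0.0883% of rows did), and 4 had an unadjusted p under 0.05 in limma, against 10.1% of rows. TIMMDC1 averaged -0.19 against no siRNA and 0.81 against control siRNA (difference -1.0, SE 0.20, adjusted p = 0.066), and SLC25A45 -0.56 and 0.42 (difference -0.97, SE 0.24, adjusted p = 0.105). Both passed in the fit with arrays centred on their medians (smallest adjusted p = 0.00173, 87 rows changed in all) and in that with the median of features (0.000217, 162 rows). Neither passed with arrays centred and scaled, with robust moderation or with control as the only term. Each has 1 feature, so taking the median left its own values as they were. MRPL43 averaged 0.35 against no siRNA and -0.05 against control siRNA, and UQCRB 0.09 and -0.30. None of the 7 lower genes was among these 4, but with 4 of 46 genes little overlap would be seen in any case. The differences of the 7 by control ran from -0.34 (MRPS27) to 0.08 (MRPL19). Arrays with control siRNA and arrays with no siRNA also carry identifiers (mAdbID) from different ranges in their titles. The titles do not say whether these mark a batch, and a batch split in that way could not be told apart from control.

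Other nuclear genes for mitochondria were counted from lists of 102 symbols, chosen with earlier results of these data known. Of 40 measured, 4 were lower and 1 higher, against 6.23% and 3.0% of all rows. The median over the 40 was -0.11, and 31 means (77.5%) were below 0, against 48.5% of all rows. HSPA9, the mitochondrial Hsp70, averaged -0.79 ± 0.61, LRPPRC, which stabilises mitochondrial messages, -0.51 ± 0.21, SSBP1, which coats single-stranded mitochondrial DNA, -0.34 ± 0.12 and SUCLA2, of succinyl-CoA synthetase, -0.46 ± 0.04 (SD, n = 4 each). DNAJA3, a mitochondrial J-domain cochaperone, was higher at 0.39 ± 0.18. Without the 8 h array HSPA9 was the 1 gene of the 5 to pass, and without any of the other 3 arrays 0 of them did. HSPA9 averaged -0.51 without the 24 h array over no siRNA.

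The enzymes of pyruvate dehydrogenase and the TCA cycle had a median of -0.25, with 13 of 14 means below 0, against 48.5% of all rows. Of the 14 only SUCLA2 passed the threshold. SUCLA2 was at -0.47 at 6 h, -0.48 at 8 h, -0.40 at 24 h over control siRNA and -0.49 at 24 h over no siRNA, so its 4 values lay close together. PDHA1 averaged -0.37 (limma adjusted p = 0.0622), and IDH2 at 0.08 was the highest of the 14. The 9 chaperones and proteases had a median of -0.24 (1 lower, 1 higher), the 7 genes of mitochondrial DNA, transcription and its regulators -0.04 (2 lower), and the 6 translation factors and synthetases -0.02 (0 called). NRF1, whose site is among the motifs above, averaged 0.29 (adjusted p = 0.092). The 2 assembly factors had a median of 0.09 and the 2 genes of membrane dynamics, MFN2 and OPA1, one of 0.12, with 0 called. Markers of other blood lineages (8 T cell, 3 monocyte and 3 erythroid genes) had 0 called, and of 7 B-cell markers CD74 was higher at 0.37. Among all rows 6.23% were lower and 3.0% higher, so these short lists hold too few genes to be compared by their calls.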

How the data were processed

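RNA of OCI-Ly10 cells with MYC siRNA (Cy5) and of control cells (Cy3) was compared on 4 arrays of 2 channels. The values used are log2 ratios as deposited by the authors in the value table of the series. The sources used here do not state background correction, normalization, log base, direction or why cells are empty, and scanner intensities were not used, so signal over background is unknown. Precision is limited by the number of arrays.

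The table held 15154 features. Symbols came from the platform annotation and were updated by Entrez ID (10124 features) or accession (17) through RefSeq of GRCh38.p14, and 24 kept the platform's symbol. Of the rest, 4 listed several symbols and 4985 none. Features of 1 symbol were averaged per array, and rows with a value on at least 2 arrays were kept. The mean against 0 was fitted with limma 3.58.1 (R 4.3.3; lmFit, eBayes; prior degrees of freedom 6.02 against 3 residual for rows on 4 arrays). The model with time and control as terms had prior degrees of freedom of 17.5 against 1 residual. The code was tested on simulated data. P-values were adjusted over all rows.

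The members, gene lists, named-gene rule (genes past the threshold, the extremes of each role, the largest differences by time or control, and discordant features) and alternatives were chosen with earlier results of these data known. Alternatives were centred or scaled arrays, medians of features, single features, stricter filters, added terms, other moderation and leaving out each array.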

Additional observations from a re-analysis of the deposited data

Results flagged for a closer look

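Among the 46 genes measured on all 4 arrays, 3 had 1 array far from the other 3 (the gap to the nearest value, as a share of the whole range, was above Dixon's critical value at 95%). About 1 in 20 groups of 4 is marked so by chance. TFAM had -1.296 on the 24 h array over no siRNA, TOMM34 -0.48 on the 24 h array over control siRNA, and ATP5MG -0.183 on the 8 h array. The array that marks TFAM also had the widest spread over all features.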

How the results depend on the processing

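The count of 7 lower mitochondrial genes was 6 to 9 with centred or scaled arrays, medians of features, single features, stricter filters on empty cells or robust moderation. In those fits 6.06% to 10.2% of all rows or features fitted were lower, against 6.23% as reported. The count was 12 of 46 with time and control as terms, when 1980 rows in all changed and 16.5% of 6798 rows were lower. It was 0 without moderation, when 1 row changed. Single features gave 1519 calls in all; there a gene counted where a feature with the sign of its mean passed, which leaves out COX20, with 1 lower feature and a mean of 0.02. Beyond the 7, the lower genes were ATP5PF and NDUFAB1 over single features, and NDUFAB1 and TIMM44 over rows on all 4 arrays. With time and control as terms they were ATP5PO, MRPL27, MRPS15, NDUFAB1 and TIMM44. The count of higher genes was 1 over single features (COX17), 1 over rows on all 4 arrays (COX8A) and 2 with time and control as terms (COX8A and TIMMDC1). Leaving out each array gave 0 to 5 lower mitochondrial genes, 0 higher, and 0 to 162 rows in all. Without 1 array, 0% to 1.49% of all rows fitted were lower. For the kind of control, 2 genes passed with centred arrays and 2 with medians of features, and none of 46 by time under any alternative run. The median over the 48 genes stayed within the spread between arrays in all alternatives. Over single genes and alternatives, 575 results stayed on their side of the threshold, 29 lost the call and 13 gained it, and no called value changed sign; the cause was not tested. By time and control the models without 1 array leave no residual degree of freedom and were not run. The ratio tested already sets MYC siRNA against control on the same array. No further pairing between arrays was possible because the labels give the arrays no replicate numbers. The kind of control, which goes with the range of the identifiers in the titles, entered as a term in the fit with 12 lower genes. Signal over background, dye bias and depth could not be assessed.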

Other observations

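TOMM40, the channel of the outer membrane translocase, had a value on 1 array only, 0.15 at 8 h against control siRNA, and enters no comparison. Across the 46 genes measured on all 4 arrays, Pearson's r between pairs of arrays ran from 0.27 to 0.69, and over 6798 rows from 0.35 to 0.58. Both ranges are across genes, not across independent replicates, and the arrays share the dye orientation and the features.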
